A study of Drosophila melanogaster with 4 samples.

Results

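The centromere-side end of the Drosophila melanogaster X chromosome was examined for H3K9me1, histone H3 carrying a single methyl group on a lysine of its tail. It was taken as all sequence of the assembled arm beyond X 19400000 in FlyBase release 5, 3.02 Mb in all, and is called centromere-side X here. Its members were the 20 kb tiles and the enriched clusters with their midpoint in that range: 152 of 6023 tiles on the arms and chromosome 4, 321 of 15404 clusters in ChIP replicate 1, 318 of 14643 in ChIP replicate 2, and 545 of 21525 in the list made for the whole series. Middle X, from 5000001 to 19400000, served for comparison, with 720 tiles and 1786, 1685 and 2749 clusters in the same lists.

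The nuclei came from heads of flies labelled Mixed Adult, of the wild-type strain Oregon-R, and all samples share that strain and stage, with no treatment. Chromatin bound by an antibody against H3K9me1, labelled new lot 2, was sequenced (ChIP-seq) in 2 libraries, and each of 2 input libraries was the control for the clusters of the ChIP library with its number. Heads hold many cell types, so each cluster is an average over them. The labels do not say whether the replicates are separate collections of flies, so their spread may be technical.

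Methylation of this lysine is added in steps, and the dimethylated and trimethylated forms are bound by the protein HP1 and mark the heterochromatin around centromeres, while the monomethylated form is their precursor. The fly X is acrocentric, so its long arm runs to the pericentric heterochromatin that also holds ribosomal RNA genes. The border of euchromatin and heterochromatin on X carries flamenco, a locus whose RNAs give rise to piRNAs against transposons. Where such loci lie relative to the clusters was not analysed here, since the available gene table is on release 6 and no position was carried over between releases.

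Coverage by H3K9me1 clusters did not fall gradually toward the centromeric end of X. Clusters covered most of centromere-side X about as densely as middle X, were missing from a single block of 351.0 kb at X 21500649 to 21851611 in both replicates, and returned on its centromeric side. In windows of 500 kb counted toward the centromere, replicate 1 was covered to 31.3%, 29.9%, 26.1%, 28.3%, 6.48% and 28.2% of bases. The same windows of replicate 2 were covered to 31.0%, 27.2%, 22.5%, 27.6%, 7.03% and 27.6%. In both replicates the fifth window was far below the others, and the last window, which ends at the end of the assembled arm and is 522.8 kb long, was close to the one before the fifth.

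**Figure D1:**
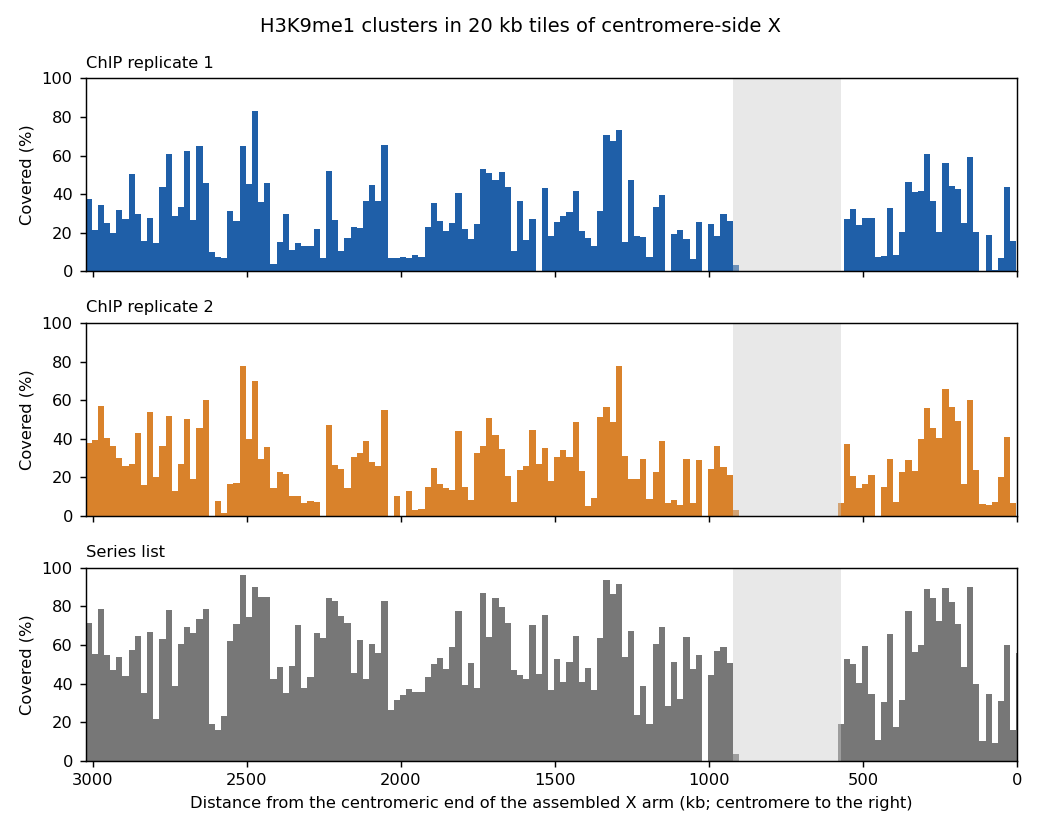
Percent of each 20 kb tile of centromere-side X under H3K9me1 clusters (vertical axis) against the distance of the tile from the centromeric end of the assembled arm in kb (horizontal axis, centromere to the right), for ChIP replicate 1, ChIP replicate 2 and the series list. The grey band is the block of 351.0 kb with no cluster in either replicate; tiles on its centromeric side reach 56.3% in replicate 1 and 65.8% in replicate 2 at 22180001 to 22200000.

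The first window, which ends at 19900000, was covered to 31.1 ± 0.251% (SD, n = 2), the highest mean of the 6. The next, at 19900001 to 20400000, was covered to 28.5 ± 1.94% and the one after it, at 20400001 to 20900000, to 24.3 ± 2.53%. Coverage was 28.0 ± 0.481% at 20900001 to 21400000, 6.76 ± 0.392% at 21400001 to 21900000 and 27.9 ± 0.474% from 21900001 to the end of the arm. In both replicates coverage fell from the first window to the one at 20400001 to 20900000, and was higher again in the next. The windows that start at 19900001, 20900001 and 21900001 held 27.2%, 27.6% and 27.6% in replicate 2. In replicate 1 they held 29.9%, 28.3% and 28.2%. A spread from 2 replicates cannot show whether such windows differ.

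Middle X gave the range against which these windows can be read. Its 28 windows of 500 kb ran from 17.2% to 40.0% in replicate 1, with a median of 31.1%, and from 15.5% to 39.2% in replicate 2, with a median of 27.8%. Only the window at 21400001 to 21900000 lay outside that range, below all 28 middle windows in both replicates. The lowest of the remaining 5 windows, at 20400001 to 20900000, still exceeded 6 middle windows in replicate 1 and 5 in replicate 2. The last window of the arm exceeded 9 of 28 in replicate 1 and 14 of 28 in replicate 2. Windows of a library are not independent, so these counts are a description and carry no p-value.

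**Figure D2:**
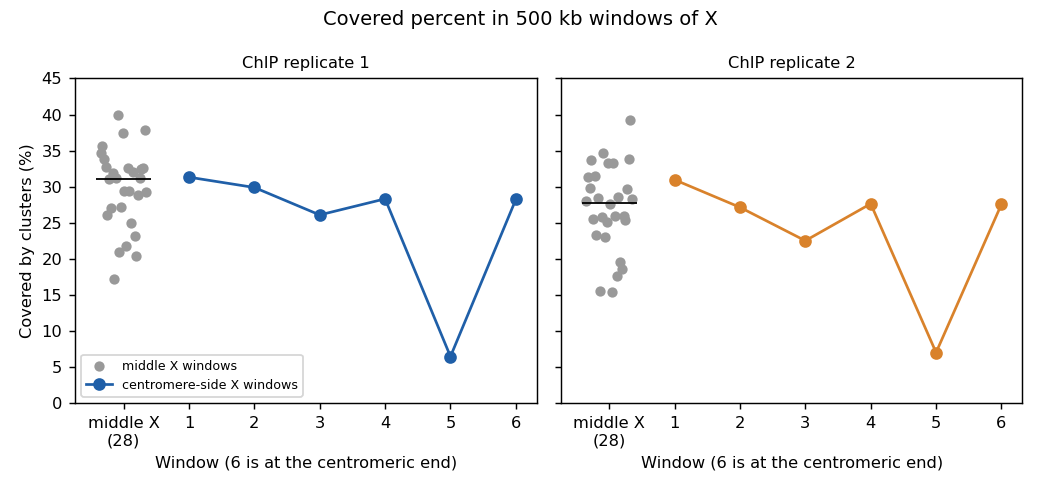
Percent of bases under clusters in 500 kb windows of X (vertical axis) for each ChIP replicate. Grey points are the 28 windows of middle X with their median as a line, in the order of the chromosome, and the joined points are windows 1 to 6 of centromere-side X, of which window 5 lies at 6.48% and 7.03%.

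Over its whole length centromere-side X was covered less by H3K9me1 clusters than middle X. Replicate 1 was covered to 25.1% against 30.1% on middle X, and replicate 2 to 23.8% against 27.3%. Both values of centromere-side X lay below both of middle X. The means were 24.5 ± 0.877% and 28.7 ± 1.94% (SD, n = 2), a difference of -4.25 ± 1.06 percentage points and a ratio of 0.853 ± 0.0271. With 2 replicates, an exact two-sided sign-flip permutation test cannot give less than 0.5, and it gave p = 0.5 here, so it cannot pass a threshold with these samples and the values are given as a description. When the block of 351.0 kb was left out, a choice made after the data were seen, centromere-side X was covered to 28.4% in replicate 1 and 27.0% in replicate 2. The replicate values of the stretches then overlapped, and the difference was -1.04 ± 0.948 percentage points. When the longest cluster-free stretch was left out of middle X as well, it was -1.20 ± 0.959 percentage points.

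The lower coverage went with fewer clusters per Mb, while the score and width of the clusters were close to those of middle X. Replicate 1 held 106.2 clusters per Mb on centromere-side X against 124.0 on middle X, and replicate 2 held 105.2 against 117.0. The ratio of cluster density was 0.878 ± 0.0303 (SD, n = 2), and 0.993 ± 0.0343 with the block left out. Median cluster width was 1883 bp against 1968 bp in replicate 1 and 1891 bp against 1924 bp in replicate 2, a ratio of 0.970 ± 0.0184. Clusters of at least 5 kb made up 4.36% of the clusters of replicate 1 and 3.14% of those of replicate 2, against 5.26% and 4.69% on middle X.

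Each cluster carries a score given by the authors, whose scale is not given in the sources used here. It is used to rank and describe clusters within a list. Where scores of different lists stand side by side, it is not known whether they share a scale. Of 229 overlapping pairs of clusters, 143 scored higher in replicate 1, with a median difference between replicates of 0.0451. The median score was 0.743 on centromere-side X against 0.746 on middle X in replicate 1, and 0.708 against 0.705 in replicate 2. The difference changed sign between the replicates (exact two-sided sign-flip permutation p = 1) and was smaller in size than the gap of either stretch between replicates. Within centromere-side X, the median of the first 500 kb window was 0.756 in replicate 1 and 0.749 in replicate 2. In the last window it was 0.740 and 0.681. Scores of single clusters were weakly ordered along the stretch, with a Spearman's rho against position of -0.0952 over 321 clusters of replicate 1 and -0.181 over 318 clusters of replicate 2, against -0.00475 and -0.0220 on middle X. Neighbouring clusters share a library and a region, so these correlations are a description.

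**Figure D3:**
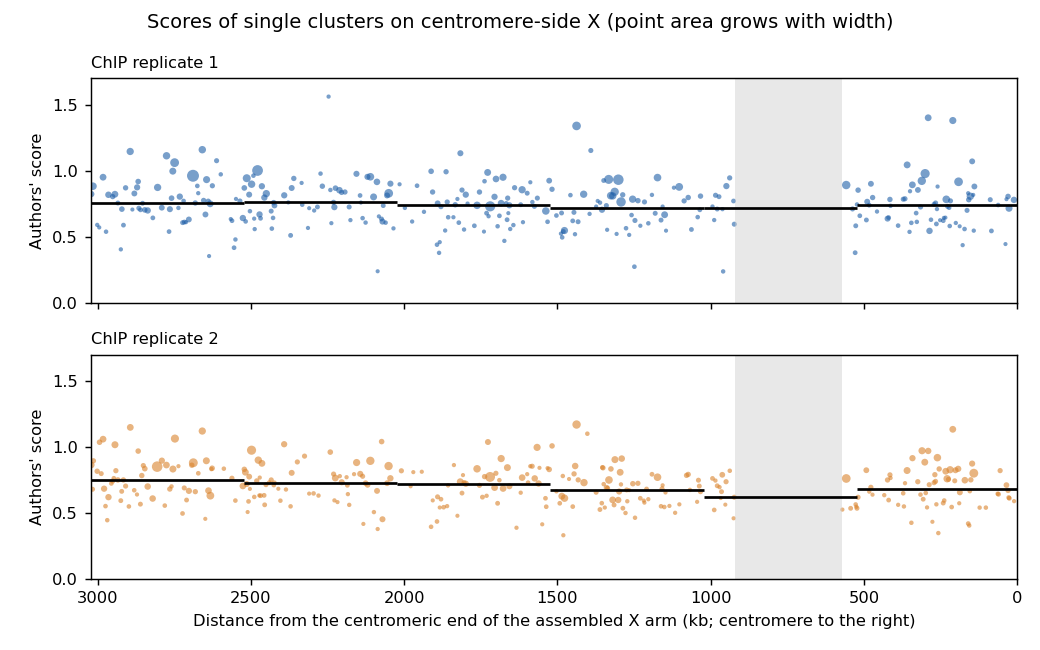
Authors' score of every cluster of centromere-side X (vertical axis) against the distance of its midpoint from the centromeric end of the assembled arm in kb (horizontal axis, centromere to the right), for each ChIP replicate. Point area grows with cluster width, black lines are the medians of the 6 windows, and the grey band is the cluster-free block; clusters on its centromeric side have medians of 0.737 in replicate 1 and 0.663 in replicate 2.

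Tiles without any cluster base were more frequent on centromere-side X than on middle X, and most of them lay in the block. In replicate 1, 22 of 152 tiles were empty, 14.5%, against 6.67% of middle X tiles and 9.83% of all tiles on the arms and chromosome 4. Replicate 2 had 23 empty tiles, 15.1%, against 8.06% of middle X and 11.5% of all. In both replicates at once, 18 tiles were empty, 11.8%, against 4.03% on middle X and 7.82% on all. Of these 18, a run of 16 neighbouring tiles filled 21520001 to 21840000. The other empty tiles were 21400001 to 21420000 and the tile that starts at 22420001, which is cut short by the end of the arm. With the tiles of the block left out, a choice made after they were seen to be empty, the share of empty tiles was 3.73% in replicate 1 and 5.22% in replicate 2. With the longest cluster-free stretch left out of middle X in the same way, its shares were 6.28% and 7.68%.

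Tile coverage varied widely along centromere-side X. Over all 152 tiles, empty ones and those of the block included, the median tile was covered to 23.0% in replicate 1 and 22.1% in replicate 2. The quartiles were 8.23% and 36.7% in replicate 1 and 7.41% and 36.3% in replicate 2. Over the 134 tiles outside the block the medians were 25.7% and 24.6%. The fullest tile by the mean of the replicates was 19940001 to 19960000, with 82.9% in replicate 1 and 70.2% in replicate 2. It was followed by 21120001 to 21140000 with 73.4% and 77.7%, and by 19900001 to 19920000 with 65.0% and 77.7%. Tiles covered over more than 50% of their bases numbered 17 in replicate 1 and 16 in replicate 2. These were 11.2% and 10.5% of all tiles, those of the block included, against 17.9% and 12.5% on middle X. At the boundary of the stretch, the tile just inside was covered to 37.5% in replicate 1 and 37.7% in replicate 2, and the tile just outside to 33.0% and 34.1%.

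The rank correlation of tile coverage with position toward the centromere was -0.242 in replicate 1 and -0.235 in replicate 2 over 152 tiles. On middle X it was -0.0494 and -0.0378 over 720 tiles. Without the 18 tiles whose midpoint lies in the block, it was -0.0926 in replicate 1 and -0.0957 in replicate 2 over 134 tiles. Over the 105 tiles before the block it was -0.128 and -0.143, and over the 29 tiles after it -0.186 and -0.0426. Tiles share their library and their neighbours, so no p-value is attached. At 100 kb resolution, coverage rose and fell repeatedly along the stretch. Windows of 100 kb at 19900001 to 20000000 held 52.8 ± 3.03% (SD, n = 2) and at 20000001 to 20100000 only 15.4 ± 0.655%. The window at 20400001 to 20500000 held 6.73 ± 0.907%, the lowest outside the block and the 100 kb windows that touch it.

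The edges of the cluster-free block lay closer together between replicates on its arm side than on its centromeric side. On its arm side, the last cluster lay at 21498681 to 21500648 in replicate 1, with a score of 0.595, and at 21498628 to 21500632 in replicate 2, with a score of 0.618. These ends are 16 bp apart. On its centromeric side, the first cluster of replicate 2 was a narrow one at 21851612 to 21852974, 1363 bp wide with a score of 0.524, while replicate 1 resumed at 21862125 to 21867593, 5469 bp wide with a score of 0.892. The free length was therefore 361.5 kb in replicate 1 and 351.0 kb in replicate 2. In the 50 kb before the block, 27.4 ± 5.05% of bases were covered (SD, n = 2), and in the 50 kb after it 26.5 ± 1.71%. In the 200 kb on each side, coverage was 19.1 ± 0.0976% before and 19.0 ± 1.95% after.

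The authors' list for the whole series left the same block free. It had no cluster wholly inside the block, and 2 of its clusters reached over the edges, so that 0.413% of the block's bases were covered. Across the rest of centromere-side X the series list covered 54.3% of bases. Regions typed as depleted were rare everywhere, with 31 in the series list, 1 in replicate 1 and 0 in replicate 2, and none of them lay on centromere-side X. The absence of a cluster in the block is an absence of a call. Read depth is unknown, and whether reads could be placed uniquely in the block was not examined.

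No other cluster-free stretch of centromere-side X or middle X came near this length. The longest on middle X that was free in both replicates at once was 81.1 kb, at 15892438 to 15973543, followed by 48.3 kb at 7667201 to 7715503. In single replicates, the longest on middle X was 81.2 kb in replicate 1 and 122.0 kb in replicate 2. On centromere-side X, the next longest stretches free of clusters in both replicates were 37.1 kb at 21390574 to 21427720, 23.2 kb at 22010175 to 22033331, 22.2 kb at 21965996 to 21988185 and 21.4 kb at 20488030 to 20509386. The stretch of 37.1 kb lay on the arm side of the block, beyond 72.9 kb that were covered to 28.1% in replicate 1 and 30.4% in replicate 2. It was covered to 3.84% by series clusters, whereas those of 23.2 kb, 22.2 kb and 21.4 kb were covered to 21.4%, 16.0% and 24.1%. Among 16546 stretches without a cluster of either replicate on the arms and chromosome 4, the block on X was exceeded in length only by 1290.9 kb at the end of 3L and by 398.2 kb at the start of chromosome 4. Median spacing between neighbouring clusters was 3.91 kb in replicate 1 and 3.65 kb in replicate 2, against 3.05 kb and 3.26 kb on middle X.

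Beyond the block, H3K9me1 clusters of the replicate lists covered the last 571.2 kb of the arm about as densely as the 2100.6 kb before it. Coverage was 28.5% before and 27.9% after the block in replicate 1, and 26.8% before and 27.5% after in replicate 2. The means were 27.7 ± 1.18% and 27.7 ± 0.296% (SD, n = 2), and their order differed between the replicates. Replicate 1 had 119.5 clusters per Mb before the block and 122.5 after it, from 251 and 70 clusters, and replicate 2 had 118.1 and 122.5, from 248 and 70. Median scores after the block were 0.737 in replicate 1 and 0.663 in replicate 2, against 0.750 and 0.711 before it, lower after the block in each. Median width was 1832 bp after and 1890 bp before the block in replicate 1, and 1901 bp and 1883 bp in replicate 2. The series list was less dense after the block, with 50.4% of bases covered against 55.4% before it. It held 168.1 clusters per Mb after the block against 213.7 before it, with median scores of 0.519 and 0.518. The last 1 Mb of the arm, which contains the whole block, was covered to 18.0% in replicate 1 and 17.9% in replicate 2, and its bases outside the block to 27.7% and 27.6%.

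Within the last 571.2 kb, coverage rose and fell, and was 26.5 ± 1.71% (SD, n = 2) in the 50 kb next to the block. Coverage of 100 kb windows rose from 16.2 ± 3.99% (SD, n = 2) at 21900001 to 22000000, through 26.2 ± 5.26%, to 46.4 ± 4.43% at 22100001 to 22200000, and was 39.8 ± 2.08% at 22200001 to 22300000. The final 122.8 kb, from 22300001, held 14.1 ± 0.208%. The cluster nearest the centromeric end that both replicates shared lay at 22410508 to 22413664, 9.16 kb from the end of the assembled arm, scored 0.779 in replicate 1, 0.588 in replicate 2 and 0.587 in the series list. Outward of it lay 22391612 to 22397976, 6.37 kb wide, of which replicate 1 covered 96.0% and replicate 2 covered 89.9%. The next were 22385863 to 22388839, 22359707 to 22362486 and 22278030 to 22284291, with series scores of 0.535, 0.524 and 0.663.

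The widest single regions of centromere-side X lay on both sides of the block. They were taken from 198 series clusters that touched a cluster of each replicate, so presence in both replicates was a condition of the choice. The widest lay at 21116831 to 21134093 and was 17.3 kb long, with a series score of 0.732. Replicate 1 covered 88.6% of it with 2 clusters and replicate 2 covered 82.9% with 5. The next widest, at 22258038 to 22273191, lay on the centromeric side of the block and was 15.2 kb long. It was less completely filled, to 64.7% in replicate 1 and 47.3% in replicate 2, with 4 clusters in each. Regions of 11.8 kb at 21081319 to 21093090 and 11.4 kb at 19727647 to 19739092 were covered to 81.8% and 95.0% in replicate 1 and to 75.5% and 72.3% in replicate 2. The region of 10.8 kb at 20681795 to 20692567 was covered to 43.8% and 34.1%. Width did not always go with a high score. The regions of 15.2 kb and 10.8 kb had series scores of 0.523 and 0.503, below the median of 0.605 of the 198 regions.

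The regions with the highest scores were narrower than those 5 widest, at 3.61 to 9.04 kb. They were still wider than the median of 3541.5 bp of the 198 regions, and over all clusters of the stretch wider ones scored higher, with a Spearman's rho of 0.564 in replicate 1 and 0.571 in replicate 2. The highest series score on centromere-side X, 1.55, belonged to a cluster that did not touch both replicates and was not ranked here. Among the 198 regions, the leading one lay on the centromeric side of the block, at 22210622 to 22214540, 208.3 kb from the end of the arm. It scored 1.38 in replicate 1, 1.13 in replicate 2 and 1.19 in the series list. Next came 22130423 to 22134035, also beyond the block, which scored 1.40, 0.969 and 1.08 in the same lists, a larger gap between replicates. The region at 19761851 to 19766261 had replicate scores of 1.16 and 1.12, and that at 19526513 to 19531209 had 1.15 and 1.15. At 20979029 to 20988066, 9.04 kb wide with a series score of 1.01, the highest cluster of replicate 1 scored 1.34 and that of replicate 2 scored 1.17, and the lowest cluster scored 0.519 and 0.855. No gene was assigned to any of these regions.

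The replicates placed clusters on centromere-side X nearly as alike as on middle X. Shared bases came to 504.4 kb of 974.5 kb covered in either replicate, a Jaccard index (shared bases divided by bases covered at least once) of 0.518, against 0.544 on middle X. By 500 kb window the index ran from 0.463, in the window with the block, to 0.549, in the first window. Of the replicate 1 clusters, 229 of 321 touched a replicate 2 cluster, 71.3%, and of the replicate 2 clusters 235 of 318 touched a replicate 1 cluster, 73.9%, against 74.2% and 79.3% on middle X. Tile coverage of the replicates correlated with a Pearson's r of 0.855 and a Spearman's rho of 0.847 over 152 tiles, against 0.870 and 0.850 on middle X, and the median gap between replicates in a tile was 6.97 percentage points. These values are across tiles of the same pair of libraries and carry no p-value. They include tiles empty in both replicates, 18 of 152 on centromere-side X (11.8%) against 4.03% of those on middle X. No correlation without the empty tiles is given here.

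Clusters found in a single replicate were narrower and scored lower. In replicate 1, the 229 clusters that touched a cluster of replicate 2 had a median score of 0.763 and a median width of 2146 bp, and those that did not had 0.684 and 1596 bp. Replicate 2 gave 0.718 and 2072 bp for touching clusters and 0.674 and 1573 bp for the rest. Middle X had the same order, with 0.771 and 2140.5 bp against 0.689 and 1570 bp in replicate 1. In replicate 2 it had 0.719 and 2049 bp against 0.657 and 1494 bp. Touching needed 1 shared bp, which a wider cluster meets more easily, so these values are a description. In the 229 overlapping pairs, the midpoints lay a median of 230.5 bp apart and the scores correlated with a Spearman's rho of 0.450, against 0.485 over 1326 pairs on middle X. Of the 545 series clusters, 198 touched both replicates, 153 touched a single replicate and 194 touched neither, or 36.3%, 28.1% and 35.6%. On middle X these shares were 41.1%, 24.0% and 34.8%.

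The centromeric ends of 2L, 3L, 3R and 2R, the last added after the data were seen, had other orders of coverage than X. Counted back from the end of the assembled arm in windows of 500 kb, X was covered to 28.4 ± 0.224% (SD, n = 2) in the window at the end, 7.52 ± 0.121% in the next and 27.2 ± 0.477% in the one after it. The same windows on 2L held 0.134 ± 0.189%, 9.33 ± 1.61% and 33.7 ± 0.186%, so that coverage did not return at the end. On 3L the first 2 windows held no cluster in either replicate and the window after them held 0.130 ± 0.184%. On 3R, whose centromeric end is the start of the sequence, they held 36.7 ± 2.29%, 52.2 ± 2.86% and 42.2 ± 4.12%, with no empty block. On 2R, which also starts at its centromeric end, they held 0.966 ± 0.352%, 1.04 ± 0.194% and 2.04 ± 1.03%, low up to the end as on 2L and 3L.

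The longest cluster-free stretch in the last 3.02 Mb of 2L was 309.0 kb, at 22163524 to 22472571, of similar length to that of X. The 539.0 kb beyond it were covered to 0.548% in replicate 1 and not at all in replicate 2, whereas the 571.2 kb beyond the block on X were covered to 27.9% and 27.5%. On 2R the longest was 325.7 kb, at 707500 to 1033160, and the 707.5 kb beyond it were covered to 1.69% and 1.14%. On 3L the longest stretch ran to the end of the arm, and on 3R the longest was 74.8 kb. The numbers of stretches of at least 50 kb were 1 on X, 5 on 2L, 2 on 3L, 1 on 3R and 9 on 2R. Over the whole 3.02 Mb the coverage of X, 25.1% and 23.8%, was nonetheless close to that of 2L, 24.2% and 21.3%, of 3L, 26.5% and 24.1%, and of 2R, 21.9% and 20.1%, and below that of 3R, 38.0% and 33.9%. These are values of single chromosome arms in the same 2 libraries, so the differences between arms were not tested.

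**Figure D4:**
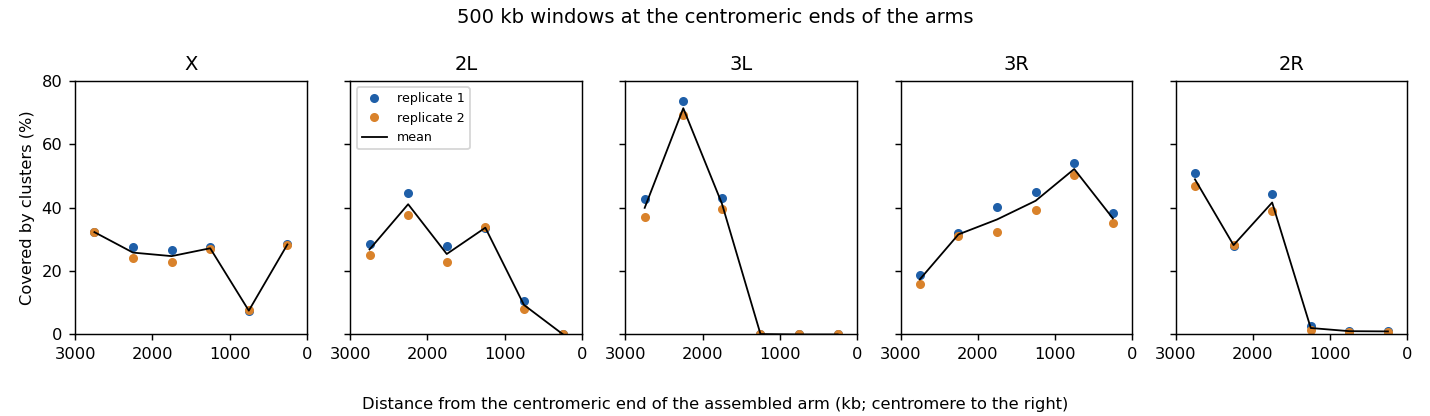
Percent of bases under clusters in 500 kb windows (vertical axis) against distance from the centromeric end of the assembled arm in kb (horizontal axis, centromere to the right) for X, 2L, 3L, 3R and 2R. Points are the ChIP replicates and lines their means; on X the window at the end holds 28.4% after a window of 7.52%, while on 2L, 3L and 2R the window at the end holds 0.134%, 0% and 0.966%.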

How the data were processed

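The submitters' processing notes name Bowtie 0.12.7 as the aligner. The deposited values are lists of clusters with a signed authors' score, on FlyBase release 5 per the file headers. What called the clusters, at which threshold, on which scale they were scored and how the series list was built from the replicates are not given in the sources used here. Clusters were at least 1301 bp wide in the replicate lists and 1001 bp in the series list. Read counts were not analysed here, so depth is unknown and no counting interval is given.

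Coverage was the percent of bases under enriched clusters. Clusters and tiles were assigned by midpoint, and clusters sharing at least 1 bp were counted as touching. The clusters named were, among series clusters touching both replicates, the 5 widest, the 5 with the highest score and the 5 nearest the centromeric end, beside the 5 longest stretches free of clusters in both replicates. The stretch, lists and rules were chosen with earlier results of these data known. Values are mean ± SD over 2 ChIP replicates, and stretches were compared by an exact sign-flip permutation test. Alternatives covered the score and width of the clusters counted, joining of clusters, tile width, the start of the stretch, the list and leaving out each replicate. Coverage and gap calculations were tested on simulated data. Of the overlap calculations, only the Jaccard index was run there, on a list set against itself, so overlap between different lists was not tested. No genome of release 5 was used, so no sequence is shown. Tools were SciPy 1.17.1, pandas 2.3.3, NumPy 2.4.6 and Matplotlib 3.10.9 under Python 3.11.15.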

Additional observations from a re-analysis of the deposited data

How the results depend on the processing

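No paired analysis was possible because, between ChIP and input, each input only served as the control for calling clusters and gave no values of its own. The stretches of X were compared within each replicate. Of 58 alternative values, 29 moved by less than the spread between replicates (for the Jaccard index, by less than 0.05), 26 moved further and 3 reversed a direction that both replicates shared. The score difference had no such direction: it was -0.00339 and 0.00357 in the replicates and fell below 0 in clusters of at least 2 kb as well. The causes of these shifts were not tested. Coverage of centromere-side X stayed below that of middle X under every setting run. Values with 1 replicate left out lie within the SD by construction, and all of them are among the 29 that moved less. These ran from -5.00 to -3.50 percentage points and from 0.834 to 0.872 for the difference and ratio of coverage.

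In the series list the difference in coverage was -5.47 percentage points, its ratio 0.898, the difference in empty tiles 10.5 points, the ratios of cluster density and width 0.944 and 0.944, the score difference 0.00684 and the correlation of tile coverage with position -0.284. With the last 2 Mb of the arm alone, coverage differed by -6.74 points, a ratio of 0.766, and empty tiles by 13.4 points. Among clusters of at least 2 kb, coverage differed by -3.19 points, the score by -0.00517, the Jaccard index was 0.467, and the width ratio reversed to 1.03. With clusters below the median score of each list removed, empty tiles differed by 8.26 points, the width ratio was 0.999 and the correlation with position -0.263. Tiles of 10 kb and 50 kb gave differences in empty tiles of 5.49 and 9.14 points and correlations of -0.202 and -0.281.

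With the block of 351.0 kb left out, chosen after the data were seen, coverage differed by -1.04 points, a ratio of 0.965, the density ratio was 0.993, the correlation with position -0.0941, and the difference in empty tiles reversed to -2.88 points. Leaving the longest cluster-free stretch out of middle X too gave -1.20 points, a ratio of 0.959 and, reversed as well, -2.51 points for empty tiles. Unknown depth and the unexamined placing of reads limit every statement on sequence without clusters.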

Other observations

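The highest-scoring cluster of centromere-side X in replicate 1, singled out after its values were seen, lay at 20175402 to 20176797 with a score of 1.56. It was 1.40 kb wide, was fully covered by the series list, and no base of it was covered in replicate 2. The highest-scoring cluster of replicate 2, at 20982393 to 20987795 with a score of 1.17, was fully covered in replicate 1.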
